A study of Mus musculus with 4 samples.

Results

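The genes described here encode ubiquitin ligases, deubiquitinases and proteins that work with them. Most of these build, bind or remove ubiquitin chains in the TNF receptor complex, where RIPK1 is a target. They were the rows whose symbol was Rnf31, Rbck1, Sharpin, Cyld, Tnfaip3, Tnip1, Birc2, Birc3 or Xiap, and all 9 were found, each on 1 of the 23700 rows of the tables. Helper T cells from the spleens of C57BL/6 mice aged 43 weeks were sequenced in 4 libraries, 2 labelled RIPK1-KO (KO 1 and KO 2) and 2 labelled wild type (WT 1 and WT 2). Per the series design the deletion is specific to T cells; the Cre driver, the deleted exons and the word Ctrl, which all 4 titles carry, are not explained in the sources used here. No label ties the libraries to separate mice, so each p-value reflects only how these libraries vary, and that variation may be technical.

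When TNF binds its receptor, the ligases cIAP1 and cIAP2 are recruited and attach ubiquitin chains to RIPK1. The linear ubiquitin chain assembly complex (LUBAC), made of HOIP, HOIL-1 and SHARPIN, adds linear chains, and the resulting scaffold recruits the kinases that switch on NF-kB. CYLD and A20 edit or remove these chains, and ABIN-1 binds linear chains and recruits A20. Loss of A20 or ABIN-1 is known to turn RIPK1 towards cell death. In T cells the same enzymes also set the strength of antigen receptor signalling to NF-kB.

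Several of these genes are textbook targets of NF-kB, so their promoters were searched for its binding motif. RefSeq (GRCm38.p6) promoter windows, 250 bases before to 50 bases after a gene's start, were found for 8 of the 9 genes, and Sharpin had no entry. The 10-base NF-kB consensus (kappaB motif) stood, on either strand, in a window of 4 of these 8 genes (Cyld, Tnfaip3, Tnip1 and Xiap), against 9.55% of 27025 genes with a window. A match is a description of letters and not a site shown to be used. The windows of Tnip1, Tnfaip3 and Cyld are shown because ABIN-1, A20 and CYLD act on the same chains but their genes had different values below. They are on the minus strand at chr11:54962891-54963190 (Tnip1) and chr10:19015361-19015660 (Tnfaip3), and on the plus strand at chr8:88696778-88697077 (Cyld). Capitals mark the matches, and each line reads 5′ to 3′ along the gene.
Tnip1: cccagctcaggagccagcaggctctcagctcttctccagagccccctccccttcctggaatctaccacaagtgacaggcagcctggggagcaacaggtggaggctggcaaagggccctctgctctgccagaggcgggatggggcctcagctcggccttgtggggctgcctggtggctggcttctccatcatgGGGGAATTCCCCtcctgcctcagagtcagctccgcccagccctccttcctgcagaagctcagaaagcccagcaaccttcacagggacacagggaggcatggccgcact
Tnfaip3: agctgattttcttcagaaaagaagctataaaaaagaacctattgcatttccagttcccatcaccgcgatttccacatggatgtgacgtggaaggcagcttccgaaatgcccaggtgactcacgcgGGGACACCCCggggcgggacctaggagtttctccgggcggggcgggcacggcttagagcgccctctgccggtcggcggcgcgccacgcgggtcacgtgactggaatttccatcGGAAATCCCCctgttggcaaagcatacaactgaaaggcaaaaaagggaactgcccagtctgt
Cyld: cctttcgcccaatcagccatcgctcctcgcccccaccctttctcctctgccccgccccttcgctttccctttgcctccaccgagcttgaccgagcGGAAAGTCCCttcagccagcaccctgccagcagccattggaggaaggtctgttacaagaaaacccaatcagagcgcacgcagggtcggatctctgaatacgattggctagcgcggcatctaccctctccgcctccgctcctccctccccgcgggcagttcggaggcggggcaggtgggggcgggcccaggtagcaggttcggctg
In Tnip1 3 overlapping matches formed a palindrome that began 58 bases before the RefSeq start; unlike the other windows, the end of this one was in no GENCODE transcript of its gene. In Tnfaip3 the matches began 125 and 12 bases before the start, and in Cyld the single match began 155 bases before it. The match of Xiap, GGGACCCTCC, lay inside the transcript, and the windows of Rnf31, Rbck1, Birc2 and Birc3 held none.

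Values were FPKM (fragments per kilobase of transcript, scaled to each library's mapped fragments), which allow levels to be compared between genes. The depth read from the steps of low values was about 17150000 and 18550000 fragments in the libraries labelled KO 1 and KO 2, and 20900000 and 21350000 in WT 1 and WT 2. Sharpin, the least covered of the 9 genes, then rested on about 283 to 581 fragments, and Tnfaip3 on 7126 to 49833. Ripk1 itself was higher in the libraries labelled KO, at 10.4 and 9.54 FPKM, against 5.61 and 5.60 FPKM in the WT libraries (log2 change 0.73 ± 0.17, SE; limma adjusted p = 0.0262). The call was lost after trimmed-mean scaling (limma adjusted p = 0.215) and on leaving out any 1 library (0.0583 to 0.118). It goes against the label; a gene-level value cannot show whether single exons were lost, so directions are stated for the libraries labelled KO. The T cell markers found, 7 of 8 listed, summed to 1339 to 1462 FPKM in the libraries labelled KO and 914 to 1154 FPKM in WT. Of these 7, 2 rose and 0 fell. Cd3d went the other way, at 175 and 169 FPKM in the libraries labelled KO, against 185 and 238 FPKM in WT. It did not pass as deposited (limma adjusted p = 0.395) and was lower after trimmed-mean scaling (log2 change -0.75, limma adjusted p = 0.0395). Erythroid markers summed to 216 to 270 FPKM in the libraries labelled KO and 4.52 to 65.7 FPKM in WT, and all 5 tested of 8 listed rose. B cell markers summed to 13.8 to 14.5 FPKM in the libraries labelled KO and 6.67 to 6.84 FPKM in WT, and myeloid markers to 24.1 and 56.0 FPKM in the libraries labelled KO and 8.37 and 45.2 FPKM in WT. Of the 3 B cell markers tested (7 listed) 2 rose, and of the 5 myeloid markers tested (10 listed) 1. Cd14 was at 0 in every library but KO 1, where it was at 0.263 FPKM. NK cell markers summed to 2.57 and 3.27 FPKM in the libraries labelled KO, against 4.48 and 4.91 FPKM in WT. For CD8 T cells the sums were 11.1 and 11.6 against 11.3 and 10.7 FPKM, and for platelets 1.58 and 1.33 against 1.16 and 1.68 FPKM. In each of these lists 1 gene was tested and 0 passed, with the NK cell gene lower at an unadjusted p under 0.05 (limma). The part of these cells in the results below was not tested. In bulk RNA, more cells of a type and more RNA per cell cannot be told apart.

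Of the 9 genes, 5 rose in the libraries labelled KO (Rnf31, Sharpin, Tnip1, Birc3 and Xiap) and 0 fell. Rbck1, Cyld, Tnfaip3 and Birc2 did not pass the test (limma on log2(FPKM + 1), adjusted p under 0.05 over 11074 rows). At an unadjusted p under 0.05, 7 were higher and 0 lower, beside 39.5% of all tested rows higher and 2.84% lower. Folds of mean FPKM ran from 1.34 for Cyld to 2.46 for Tnip1. The 55.6% of the 9 genes called higher stands beside 25.6% of all tested rows, with 1.0% of rows called lower. For 8 of the 9 genes both libraries labelled KO lay above both WT libraries, as did 58.5% of all tested rows. The median log2 change was 0.87 over the 9 genes and 0.38 over all tested rows, so the typical row was also higher as deposited. After trimmed-mean scaling, which brings the median of all rows to -0.00086, Tnip1 alone of the 9 genes passed, beside 4.01% of rows called higher and 3.60% lower. The median of the 9 genes was then 0.44, and 8 of 9 log2 changes were above 0, the exception being Cyld. Both libraries labelled KO then lay above both WT libraries for 6 of the 9 genes, and the share of all rows was not counted. After quantile normalization Tnip1 was again the only one to pass, beside 1.62% of rows higher and 0.695% lower. Without WT 1, 0 of the 9 genes passed in limma (5 at an unadjusted p under 0.05), and over all rows 9 were higher and 1 lower. Without WT 2 or KO 1, 3 of the 9 passed.

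**Figure D1:**
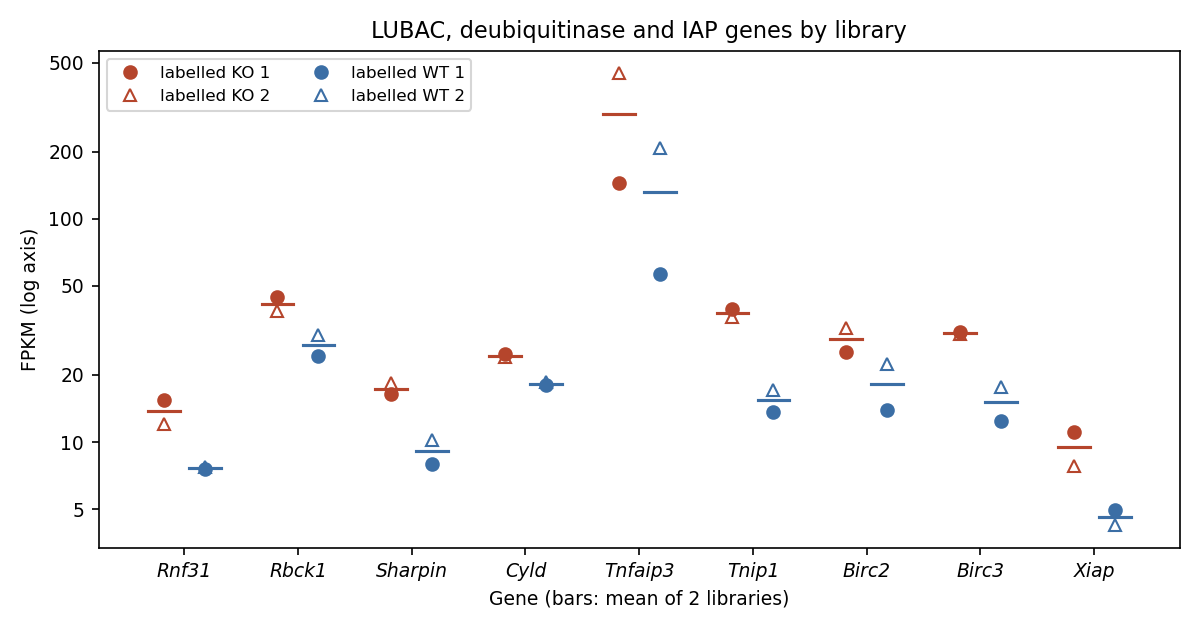
FPKM (log axis) of the 9 genes in each library, with the libraries labelled KO left of the WT libraries for each gene; bars are means of 2 libraries. Both libraries labelled KO lie above both WT libraries for each of the 9 genes except Tnfaip3, whose 4 values run from 56.8 to 448 FPKM.

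The LUBAC genes did not all pass the test. Rnf31 encodes HOIP, the catalytic subunit that forms linear chains, and stood at 15.5 and 12.1 FPKM in the libraries labelled KO, against 7.58 and 7.71 FPKM in the WT libraries. Both libraries labelled KO were above both WT libraries, and the WT values were nearly equal. The gene rose 1.80-fold (log2 change 0.77 ± 0.19, SE, n = 2 each; limma adjusted p = 0.0321). Sharpin, an adaptor subunit that stabilises the complex, was at 16.3 and 18.4 FPKM in the libraries labelled KO, against 7.94 and 10.2 FPKM in WT. Its groups did not overlap, and it rose 1.91-fold (log2 change 0.87 ± 0.20, SE, n = 2 each; limma adjusted p = 0.0258). Rbck1 encodes HOIL-1, the other adaptor, which can also attach single ubiquitins. It was the most abundant subunit, at 44.8 and 38.7 FPKM in the libraries labelled KO, against 24.4 and 30.2 FPKM in WT. The groups were apart, but the difference did not pass (1.53-fold; limma adjusted p = 0.0803, 95% interval of the log2 change 0.085 to 1.11). After trimmed-mean scaling the log2 changes were 0.34 for Rnf31, 0.44 for Sharpin and 0.14 for Rbck1, and none of the 3 passed (limma adjusted p = 0.222, 0.119 and 0.529). Leaving out WT 1, WT 2 or KO 1 ended the call for Rnf31 and leaving out WT 1 or KO 2 that for Sharpin, with adjusted p up to 0.199 and 0.109 (limma). Exons of Rnf31 share 123 of 5734 bases with the neighbouring Irf9 in the GENCODE annotation of GRCm38, and how the authors assigned such reads is not stated.

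Within a library, ratios between genes do not depend on its scaling. Rbck1 had 2.90 and 3.19 times the FPKM of Rnf31 in the libraries labelled KO, against 3.22 and 3.92 times in WT. These ratios were lower in the libraries labelled KO without overlap (exact permutation p = 0.333, two-sided). That is the smallest p that 2 against 2 libraries allow, and 0.8 after Benjamini-Hochberg adjustment over the 6 ratios examined. Sharpin had 1.06 and 1.52 times the FPKM of Rnf31 in the libraries labelled KO, and 1.05 and 1.33 times in WT, and these ranges overlapped (exact permutation p = 0.667, two-sided). HOIL-1 transcripts were thus the most abundant of the 3 per length in all 4 libraries, and those of HOIP and SHARPIN were closer to each other.

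**Figure D2:**
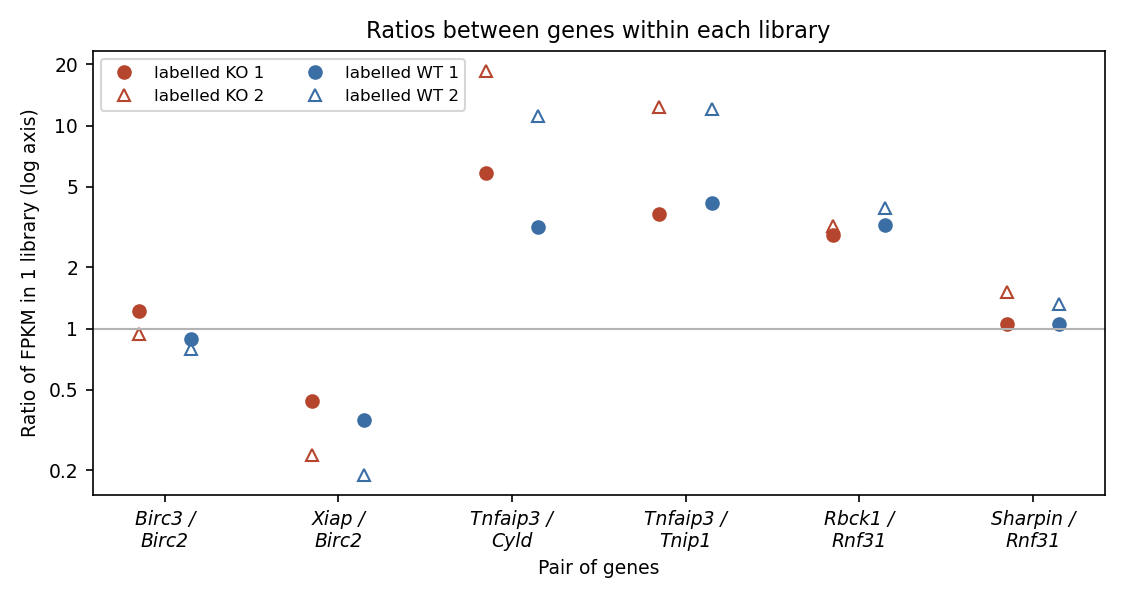
Ratio of FPKM between pairs of the genes within each library (log axis), with the libraries labelled KO left of the WT libraries. The Rbck1 to Rnf31 ratio stays between 2.90 and 3.92, while the Tnfaip3 to Cyld ratio runs from 3.17 to 18.6.

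Among the genes that remove or bind the chains, Tnip1 rose and Cyld and Tnfaip3 did not pass the test. Tnip1, encoding ABIN-1, was at 39.3 and 36.3 FPKM in the libraries labelled KO, against 13.7 and 17.1 FPKM in WT. The groups were well apart, with the lower KO value above the higher WT value, and the gene rose 2.46-fold (log2 change 1.25 ± 0.21, SE, n = 2 each; limma adjusted p = 0.0142). After trimmed-mean scaling its log2 change was 0.80 ± 0.15 (SE, limma adjusted p = 0.0368), and after quantile normalization 0.91 ± 0.14 (limma adjusted p = 0.0468). It held its call without WT 2, KO 1 or KO 2 and lost it without WT 1 (limma adjusted p = 0.0871).

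Cyld, the deubiquitinase that cuts linear and lysine 63-linked chains, was at 24.7 and 24.1 FPKM in the libraries labelled KO, against 17.9 and 18.6 FPKM in WT. The libraries of a group were within 1.04-fold of each other, and the groups did not overlap. The 1.34-fold difference did not pass (log2 change 0.40, 95% interval -0.042 to 0.84; limma adjusted p = 0.148). It lay 0.019 above the median of all tested rows, and trimmed-mean scaling turned it to -0.0503 (limma adjusted p = 0.837).

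Tnfaip3 encodes A20, which both cuts and attaches ubiquitin and restrains NF-kB in T cells. It had by far the highest FPKM of the 9 genes, at 144 and 448 FPKM in the libraries labelled KO, against 56.8 and 208 FPKM in WT. The groups overlapped, since WT 2 lay above KO 1, and within each group the library numbered 2 was the higher, by 3.11-fold in the libraries labelled KO and 3.66-fold in WT. Of 11074 tested rows, 45 (0.406%) differed by over 3-fold between the libraries of both groups, Tnfaip3 among them. In 37 of the 45 the same number was the higher in both groups. The 3-fold limit was not planned beforehand and lies just under the values of Tnfaip3, so this share is only a description. The 2.23-fold difference of the means did not pass (log2 change 1.21 ± 0.71, SE; limma adjusted p = 0.226), and its 95% interval ran from -0.47 to 2.90. Without KO 1 the log2 change was 2.03 and passed (limma adjusted p = 0.0106), and without KO 2 it was 0.40 (limma adjusted p = 0.635). The labels do not say that the numbers mark a shared day or litter.

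The ratio of Tnfaip3 to Cyld was 5.83 and 18.6 in the libraries labelled KO, against 3.17 and 11.2 in WT, which overlapped (exact permutation p = 0.667, two-sided). The ratio of Tnfaip3 to Tnip1 was 3.66 and 12.3 in the libraries labelled KO, and 4.16 and 12.1 in WT (exact permutation p = 1.0, two-sided). The Tnfaip3 to Tnip1 ratio was thus low in the libraries numbered 1 and high in those numbered 2 in both groups.

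Of the inhibitor of apoptosis (IAP) genes, Birc3 and Xiap rose and Birc2 did not pass. Birc3, encoding the NF-kB-inducible ligase cIAP2, was at 31.0 and 30.5 FPKM in the libraries labelled KO, against 12.4 and 17.7 FPKM in WT. The libraries labelled KO were nearly equal and lay above both WT libraries, and the gene rose 2.04-fold (log2 change 1.001 ± 0.226, SE, n = 2 each; limma adjusted p = 0.0242). Birc2, encoding cIAP1, stood at 25.3 and 32.5 FPKM in the libraries labelled KO, against 13.97 and 22.4 FPKM in WT. Its groups were separated by only a small gap between KO 1 and WT 2, and the 1.59-fold difference did not pass (log2 change 0.67 ± 0.27, SE; limma adjusted p = 0.109). Xiap, whose protein inhibits caspases directly, was the least abundant of the 9 genes, at 11.2 and 7.78 FPKM in the libraries labelled KO, against 4.96 and 4.24 FPKM in WT. The groups did not overlap, and it rose 2.06-fold (log2 change 0.89 ± 0.22, SE, n = 2 each; limma adjusted p = 0.0288). After trimmed-mean scaling the log2 changes were 0.55 for Birc3, 0.22 for Birc2 and 0.48 for Xiap, and none passed (limma adjusted p = 0.0749, 0.516 and 0.182). Leaving out WT 1 or KO 1 ended the call for Birc3 and leaving out WT 1, WT 2 or KO 1 that for Xiap, with adjusted p up to 0.0988 and 0.118 (limma). Birc2 and Birc3 are similar neighbouring genes, and whether the authors' method could split reads between them is not stated.

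Birc3 had 1.22 and 0.939 times the FPKM of Birc2 in the libraries labelled KO, against 0.891 and 0.793 times in WT. The ratio was higher in the libraries labelled KO without overlap (exact permutation p = 0.333, two-sided, the smallest possible). Xiap had 0.440 and 0.239 times the FPKM of Birc2 in the libraries labelled KO and 0.355 and 0.190 times in WT, which overlapped (exact permutation p = 0.667, two-sided).

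**Figure D3:**
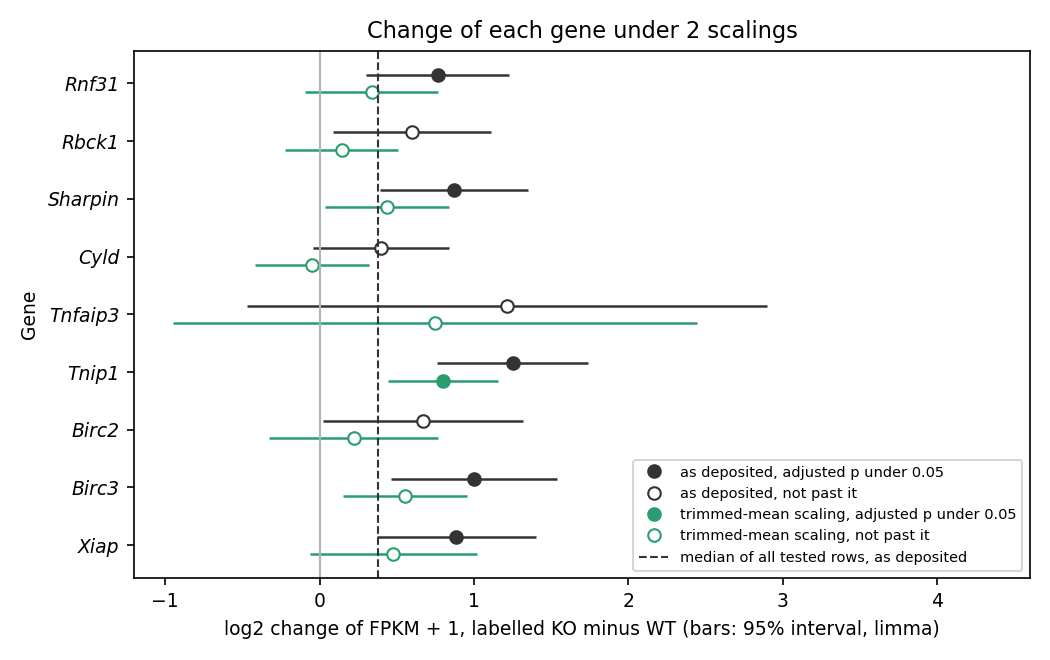
Log2 change (FPKM + 1) of each gene in the libraries labelled KO minus the WT libraries, with 95% intervals from limma, as deposited and after trimmed-mean scaling. Filled points passed at an adjusted p under 0.05; Tnip1 is the only gene filled under both, and the dashed line is the median of all tested rows, at 0.38.

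Ranks were compared over the same 11074 tested rows in every library, a base chosen after the data were seen, because more rows reached 1 FPKM in the libraries labelled KO (11099 and 11048) than in WT (10289 and 10361). Over a fixed set of rows, a rank does not depend on the scaling of its library. Tnip1 stood at the 89.5 and 88.9 percentiles in the libraries labelled KO, against 77.5 and 78.6 in WT, and its groups did not overlap. Xiap stood at 60.9 and 50.3 in the libraries labelled KO, against 49.2 and 40.7 in WT, and Birc3 at 86.2 and 86.5 in the libraries labelled KO, against 75.2 and 79.2 in WT. Tnfaip3 stood at the 97.3 and 99.0 percentiles in the libraries labelled KO and at 95.1 and 98.1 in WT, which overlapped. The groups of Cyld overlapped too, at 81.8 and 82.3 in the libraries labelled KO and 82.9 and 80.3 in WT. So did those of Birc2, at 82.4 and 87.6 in the libraries labelled KO and 78.0 and 83.8 in WT. Mean percentiles were higher in the libraries labelled KO for all 9 genes, as for 48.5% of all tested rows, with differences from 0.465 points for Cyld to 11.2 for Tnip1.

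The wider pathway was described by 5 lists of other genes, whose counts stand beside the 25.6% of all tested rows called higher and the 39.5% higher at an unadjusted p under 0.05. Tnf, the ligand of the complex, was at 18.7 and 20.1 FPKM in the libraries labelled KO, against 5.53 and 7.68 FPKM in WT. It rose 2.94-fold (limma adjusted p = 0.0131; 0.0306 after trimmed-mean scaling), a call lost without WT 1 (0.0871). Of 12 genes for TNF receptors, their adaptors and kinases, 5 rose and 0 fell (7 and 1 at an unadjusted p under 0.05, limma), with a median log2 change of 0.55, or 0.17 above all rows. Tnfrsf1b, the receptor TNFR2, was at 25.7 and 16.8 FPKM in the libraries labelled KO, against 4.80 and 6.83 FPKM in WT (3.65-fold; limma adjusted p = 0.0136; 0.035 after trimmed-mean scaling, but 0.0545 with quantile normalization). Tab1 and Tab2, which encode partners of the kinase TAK1, rose 2.36-fold and 1.95-fold (limma adjusted p = 0.0216 and 0.0218). Neither passed after trimmed-mean scaling (limma adjusted p = 0.128 and 0.094). The calls for Tnfrsf1b, Tab1 and Tab2 were lost without WT 1 (limma adjusted p = 0.0949, 0.1001 and 0.101), that for Tab1 also without WT 2 and that for Tab2 also without KO 1. Tnfrsf1a, the receptor TNFR1 that nucleates the complex, was chosen for mention after its values were seen. It was at 4.65 and 4.64 FPKM in the libraries labelled KO, against 6.04 and 7.97 FPKM in WT. It did not pass as deposited (log2 change -0.49; limma adjusted p = 0.0968) and was lower after trimmed-mean scaling (-0.89; limma adjusted p = 0.0361).

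Of 14 tested partners, readers and other editors of the chains, 4 rose and 0 fell (8 and 0 at an unadjusted p under 0.05, limma), with a median log2 change of 0.56. The 28.6% called higher is near the share of all rows. After trimmed-mean scaling 0 of the 14 passed in limma, with 1 at an unadjusted p under 0.05. The 3 with the smallest unadjusted p were Itch, Optn and Traf6. Itch, a ligase that works with A20, rose 1.73-fold (limma adjusted p = 0.0313). Optn, the ubiquitin reader optineurin, was low throughout, at 1.18 and 1.58 FPKM in the libraries labelled KO and 0.400 and 0.367 FPKM in WT. It rose 3.59-fold (limma adjusted p = 0.0355). With both WT values under 1 FPKM, Optn entered the test only through the libraries labelled KO, so its call is not independent of the filter. The same was true of Otub2, counted among the 8 at an unadjusted p under 0.05 (limma). Traf6, a ligase for lysine 63-linked chains, rose 1.84-fold (limma adjusted p = 0.0355). Leaving out WT 1, WT 2, KO 1 or KO 2 each ended the call for Itch, and leaving out WT 1, WT 2 or KO 2 those for Optn and Traf6, with adjusted p up to 0.153 (limma).

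Ubiquitin itself and its E1 and E2 enzymes lay near the median of all rows (median log2 change 0.42 over 13 genes, 1 higher and 1 lower). Uba1, the activating enzyme, rose 2.46-fold (limma adjusted p = 0.0189; 0.0742 after trimmed-mean scaling). Ube2v1, a partner of the lysine 63-specific E2, was 1.76-fold higher and did not pass (limma adjusted p = 0.0508). Rps27a, a fusion of ubiquitin to a ribosomal protein, fell to 918 and 881 FPKM in the libraries labelled KO, against 1670 and 2181 FPKM in WT (limma adjusted p = 0.0322; 0.0846 after quantile normalization). Genes for ubiquitin and ribosomal proteins have near-identical copies in the genome, so these values are uncertain. Leaving out WT 1, WT 2 or KO 1 ended the call for Uba1 and leaving out WT 1, KO 1 or KO 2 that for Rps27a, with adjusted p up to 0.0947 and 0.266 (limma).

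Of 9 tested genes for other IAPs, IAP antagonists and the caspases they bind, 4 rose and 0 fell, with the same counts at an unadjusted p under 0.05 (limma) and a median log2 change of 0.46. Birc6, a giant ubiquitin ligase of the family, rose 2.13-fold (limma adjusted p = 0.0158) and did not pass after trimmed-mean scaling (0.082). Without WT 1 its call was lost (limma adjusted p = 0.0871).

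Of 12 genes that NF-kB is known to induce or that encode its subunits and inhibitors, 9 rose and 0 fell (12 and 0 at an unadjusted p under 0.05, limma). Their median log2 change was 1.26, or 0.88 above all rows, and with trimmed-mean scaling 4 passed, all higher, with a median of 0.83. Nfkb2, the subunit p100, was at 23.4 and 20.4 FPKM in the libraries labelled KO, against 6.06 and 7.23 FPKM in WT (3.30-fold; limma adjusted p = 0.0115). Icam1, an adhesion molecule, rose 3.50-fold and Nfkb1, the subunit p105, 2.44-fold (limma adjusted p = 0.0143 and 0.016). All 3 also passed after trimmed-mean scaling (limma adjusted p = 0.0194, 0.0399 and 0.0417), and all 3 lost the call without WT 1 (0.0871, 0.0903 and 0.0871). After quantile normalization Nfkb2 and Nfkb1 passed and Icam1 did not (limma adjusted p = 0.0442, 0.0483 and 0.0595). Nfkbia, the inhibitor IkBα, and Gadd45b, a stress-induced regulator of kinases, were chosen for mention after their values were seen, for their spread between libraries. Nfkbia was at 217 and 350 FPKM in the libraries labelled KO, against 69.3 and 187 FPKM in WT, and did not pass (limma adjusted p = 0.0927). Gadd45b was at 59.0 and 129 FPKM in the libraries labelled KO, against 13.5 and 44.3 FPKM in WT, and did not pass (limma adjusted p = 0.0599). Their log2 changes depended on which library was left out. For Nfkbia they ran from 0.56 without WT 1 to 1.98 without WT 2, and for Gadd45b from 0.96 to 2.60 likewise. In both genes, as in Tnfaip3, the library numbered 2 was the higher within each group. Birc3 and Tnip1 differed by at most 1.42-fold and 1.25-fold between libraries of a group.

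**Figure D4:**
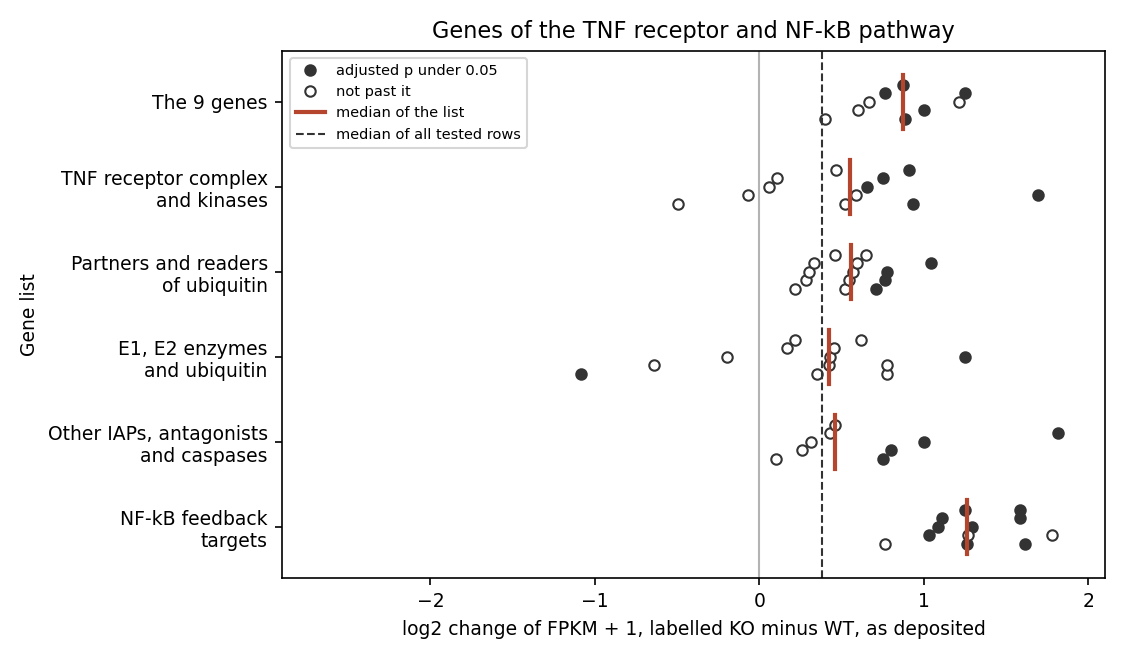
Log2 change (FPKM + 1, as deposited) in the libraries labelled KO minus the WT libraries for the tested genes of each list, with the list's median in red and the median of all tested rows dashed. The NF-kB feedback targets have a median of 1.26 and the 9 ubiquitin editing genes 0.87, while ubiquitin and its E1 and E2 enzymes lie at 0.42.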

How the data were processed

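The 2 libraries labelled KO and 2 labelled WT were prepared with NEBNext Ultra reagents from Direct-zol extracts (200 ng of RNA each), per the labels' protocols. Per the submitters' processing notes, Bowtie 0.12.2 and the build mm8 were used. The software behind the FPKM, the annotation and the strand setting are not stated. The authors deposited 1 FPKM value per gene symbol and library, per the file headers. FPKM is relative to each library's total, so a few abundant genes can shift all others.

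The test was limma's trend method (3.58.1, R 4.3.3) on log2(FPKM + 1), for rows with at least 1 FPKM in at least 2 libraries, two-sided, with Benjamini-Hochberg adjustment over 11074 rows and a threshold of 0.05. Such log2 changes understate the change of low genes; folds are ratios of mean FPKM. The median of the 9 genes, the lists and the counts are descriptions with no test of their own. Scaling by a trimmed mean of log ratios was written for this work (30% of log ratios and 5% of levels trimmed at each side). Depth was estimated from genes with 1 transcript and an assumed fragment length of 200 nt; 69.9% to 73.0% of low values came within 5% of whole fragment numbers, too few to recover counts. The procedure was tested on simulated data in which few rows changed, with equal odds up or down and no shift common to all rows. The real data differ from that setting, so the simulation does not show how the test performs on them. Of 105 listed symbols, 2 were matched by synonym and 2 were unmatched. Named besides the 9 genes, Ripk1 and Tnf were up to 3 genes of each pathway list by unadjusted p, some of which are not reported here. The genes and lists were chosen with earlier results of these data known. Figures were drawn in Python 3.11.15 with matplotlib 3.10.9. Alternatives were other pseudocounts, filters, scalings and forms of the limma test, a replicate block, and each library left out in turn.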

Additional observations from a re-analysis of the deposited data

How the results depend on the processing

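Of 117 values of the 9 genes under 13 alternatives, 89 kept their direction and side of the threshold, 24 lost the call, 3 gained it and 1 reversed (Cyld, -0.0503 after trimmed-mean scaling). As deposited 5 genes were called, against 1 after trimmed-mean scaling, 1 after quantile normalization, 0 with no filter (7 higher at an unadjusted p under 0.05, limma), 0 at a threshold of 0.01, and 0 to 4 on leaving out 1 library. Over all rows 2832 were higher and 111 lower as deposited. The counts were 444 and 399 after trimmed-mean scaling, 179 higher after quantile normalization, 3 and 0 with no filter, 25 and 2 at a threshold of 0.01, and 171 lower with robust shrinkage. Leaving out 1 library gave 9 to 2173 higher and 1 to 132 lower; without WT 1 they were 9 and 1, without WT 2 1610 and 73, and without KO 1 1825 and 88. The cause was not tested. The labels do not say whether the replicate numbers pair the libraries, and pairing was not tested. Deviations from the group means had a correlation of 0.11 across rows between the libraries numbered 1. With the replicate block 3909 rows were higher and 230 lower, and 7 of the 9 genes were called, Tnfaip3 (limma adjusted p = 0.00681) and Birc2 (0.0438) added; among the other named genes Gadd45b (2.8e-05), Nfkbia (0.00588) and Ube2v1 (0.0327) gained a call. With 2 libraries a group, 0.333 is the smallest exact two-sided p.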
